A study of Mus musculus with 12 samples.

Results

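Glucose enters a cell through transporters of the SLC2A family and is then split to pyruvate by the enzymes of glycolysis, and lactate dehydrogenase turns pyruvate into lactate. The genes described here are 10 members of that route: the transporter gene Slc2a1 and the enzyme genes Hk2, Gpi1, Pfkl, Aldoa, Tpi1, Pgk1, Eno1, Pkm and Ldha. They were taken by symbol from the tables of read counts per gene, where 11 of 55385 rows carried a member's symbol. Aldoa had a pair of rows, and the one used (ENSMUSG00000030695) held 12780 to 18361 counts per library, while the other held 0 to 6.

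The cells were satellite cells, which serve as muscle stem cells, from the hindlimbs of C57BL/6J mice. They were frozen directly after isolation and profiled by RNA-seq, with 12 libraries in 4 groups of 3. The control groups (Het) were females and males whose Keap1 genotype the labels call heterogeneous or Hetz, read here as heterozygous, so the controls carry a Keap1 change too. The other groups were females and males labelled Keap1 knockout (KO-labelled). Which cells lost Keap1, by what driver, and the age of the mice are not given in the sources used here. The comparison addressed whether the Keap1 and NRF2 pathway acts on satellite cells differently in the sexes.

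KEAP1 holds the transcription factor NRF2 at a low level, and NRF2 is known for genes of antioxidant defence and of sugar metabolism around the pentose phosphate pathway. That pathway leaves glycolysis at glucose 6-phosphate, the product of hexokinase and the substrate of the isomerase encoded by Gpi1. Resting satellite cells are known to lean on the oxidation of fatty acids and to take up more glycolysis when they activate.

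Total counts ran from 13042039 to 19273245 per library, and every member had at least 404 counts in every library. Libraries of a group differed by more than sampling of reads gives (chi-square over its degrees of freedom from 13.9 to 74) and were each kept as 1 replicate. The labels number the animals, but p-values measure the spread between these samples. Keap1 itself stood at 7.10 to 9.49 CPM (read counts scaled to library size with TMM factors) in female Het and above that, up to 12.8 CPM, in every KO-labelled female (log2 fold change 0.54, edgeR adjusted p = 0.186). The male ranges were 5.34 to 10.04 and 6.38 to 7.85 CPM. These counts sum all exons and cannot separate deleted from kept ones, so they do not check the labels. All 12 satellite cell markers were detected in all 4 groups, with a summed level of 7938 to 18331 CPM per library. The 8 markers of fibro-adipogenic progenitors, another cell type of muscle, were also all detected, at 2896 to 7074 CPM. A few genes dominate such sums, here and below, so they do not give shares of cells. Sdc4 led the satellite cell markers, with an average log2 CPM of 12.6 in females and 13.4 in males, against 3.75 and 4.21 for Pax7. Gsn and Col3a1 led the fibro-adipogenic ones, at 11.1 each in females and 11.2 and 9.71 in males. Pdgfra stood at 1.83 and 1.25.

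In KO-labelled females 3 of the 10 members rose and none fell: Gpi1, Slc2a1 and Eno1. Of all 14036 genes tested in females 2.27% passed, and 1.29% passed as higher (edgeR quasi-likelihood test, Benjamini-Hochberg adjusted p under 0.05). The members and the lists below were chosen with earlier results of these data known. Shares of all genes set beside them, here and below, are therefore given for scale and are not a test. The other 7 members, from hexokinase to lactate dehydrogenase, did not pass. In males 0 of 10 passed, against 0.861% of 13361 genes, or 0.704% as higher, and the smallest 3 p-values among the members belonged to the same 3 genes. The median log2 fold change of the members was 0.18 in females and 0.027 in males, beside 0.0044 and 0.011 over all genes tested.

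**Figure D1:**
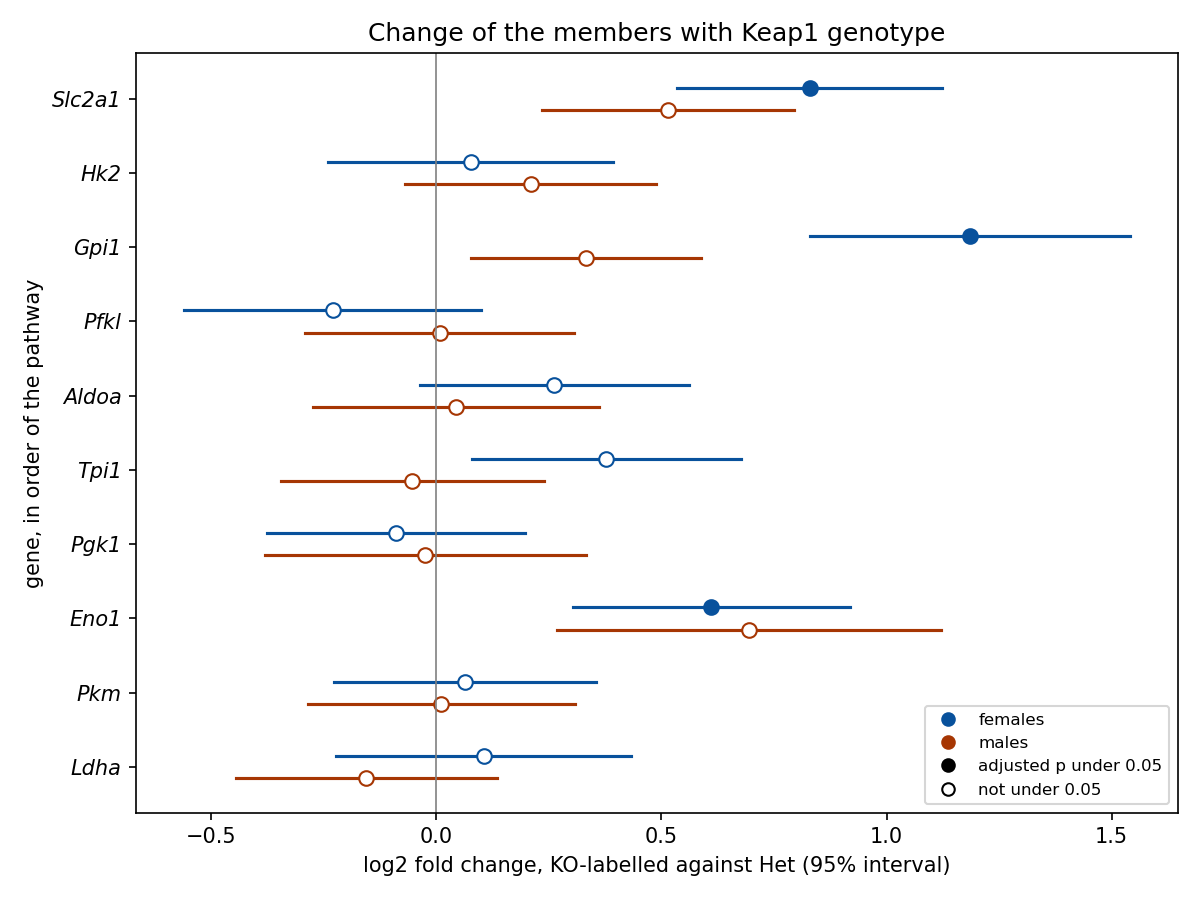
Log2 fold change (horizontal axis) of each member between KO-labelled and Het libraries, with 95% intervals, in females (blue) and males (orange), ordered along the pathway. Filled circles passed an edgeR adjusted p of 0.05. Gpi1, Slc2a1 and Eno1 in females are the filled ones, and the male intervals of these 3 genes also lie above 0.

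Slc2a1 encodes GLUT1, a transporter that lets glucose cross the plasma membrane (GRCm38 chromosome 4, 119108711 to 119137983, plus strand). Female Het animals had 222, 216 and 209 CPM, and KO-labelled females 342, 393 and 417 CPM. The groups lay far apart, and the Het libraries varied little (216 ± 6.31 against 384 ± 38.1 CPM, mean ± SD over n = 3 animals, also below). The log2 fold change was 0.83 ± 0.135 (SE), or 1.78-fold, at an edgeR adjusted p of 0.00565. Male Het animals had 254.6, 259 and 292 CPM, and KO-labelled males 385, 343 and 419 CPM. The male groups did not overlap either (268 ± 20.3 against 382 ± 37.9 CPM), and the log2 fold change of 0.51 ± 0.1295 (SE) had an edgeR adjusted p of 0.105. Female and male KO-labelled animals thus had nearly the same mean level of Slc2a1. Its female call was lost without KO188 (edgeR adjusted p = 0.0555).

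Hk2 encodes a hexokinase, which traps glucose in the cell as glucose 6-phosphate (chromosome 6, 82725025 to 82774454, minus strand). Female values were 217, 198 and 187.9 CPM in Het and 177.9, 220.4 and 239 CPM in KO-labelled animals, so all Het values lay within the KO-labelled range. Male values were 211, 233 and 177.6 CPM in Het and 232, 242 and 244 CPM in KO-labelled animals. The log2 fold change was 0.076 in females and 0.21 in males, with 95% intervals of -0.24 to 0.39 and -0.069 to 0.49. A change of the size seen for Gpi1 in females lies outside both intervals.

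Gpi1, glucose-6-phosphate isomerase, converts glucose 6-phosphate to fructose 6-phosphate (chromosome 7, 34201330 to 34230336, minus strand). It had the largest log2 fold change of the 10 members in females. Values were 102, 113 and 80.7 CPM in Het females and 194, 226 and 256 CPM in KO-labelled females. The lowest KO-labelled animal was well above the highest Het animal (98.8 ± 16.6 against 225 ± 31.0 CPM). The log2 fold change was 1.19 ± 0.164 (SE), or 2.27-fold, with an edgeR adjusted p of 0.00173, and it passed in each of the 12 other settings and fits without 1 library that were run. Values were 115, 121 and 112 CPM in Het males and 135, 155 and 147 CPM in KO-labelled males. These groups lay apart as well (116 ± 4.60 against 146 ± 10.04 CPM), but the log2 fold change of 0.33 ± 0.118 (SE) did not pass (edgeR adjusted p = 0.268).

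Pfkl, the liver-type subunit of phosphofructokinase, catalyses the committed step of glycolysis (chromosome 10, 77986947 to 78010083, minus strand). It was the member with the fewest counts. Female Het animals had 31.2, 29.8 and 32.2 CPM, and KO-labelled females 28.3, 28.6 and 22.7 CPM. It was the only member with all female KO-labelled libraries below all Het libraries, and it did not pass (log2 fold change -0.23, edgeR adjusted p = 0.454). Male means were 37.8 ± 4.26 and 37.96 ± 0.664 CPM, with a log2 fold change of 0.0075.

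Aldoa encodes aldolase A, which splits the six-carbon sugar into a pair of trioses (chromosome 7, 126795234 to 126800751, minus strand). Tpi1 encodes the isomerase that interconverts those trioses (chromosome 6, 124810586 to 124814296, minus strand). For Aldoa female values were 817, 757 and 697 CPM in Het and 879, 922 and 929 CPM in KO-labelled animals. For Tpi1 they were 45.9, 48.9 and 54.6 CPM and 67.4, 58.5 and 68.5 CPM. For both genes the female groups did not overlap, yet neither passed: the log2 fold changes were 0.26 and 0.38, with edgeR adjusted p of 0.339 and 0.186. In males the groups overlapped for both, with log2 fold changes of 0.044 and -0.053.

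Pgk1 makes ATP from 1,3-bisphosphoglycerate (chromosome X, 106187100 to 106203699, plus strand). Female values were 148, 134 and 149 CPM in Het and 126, 130.1 and 149.9 CPM in KO-labelled animals, with the ranges overlapping. Male values were 108, 127 and 128 CPM in Het and 128, 142 and 87.1 CPM in KO-labelled animals. The log2 fold changes were -0.089 and -0.024, with edgeR adjusted p of 0.765 and 0.975.

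Eno1 encodes enolase, which makes phosphoenolpyruvate (chromosome 4, 150236721 to 150248879, plus strand). Female Het animals had 432, 448 and 386 CPM, and KO-labelled females 577, 677 and 685 CPM. The groups lay apart (422 ± 31.8 against 646 ± 59.8 CPM), with a log2 fold change of 0.61 ± 0.142 (SE), or 1.53-fold, and an edgeR adjusted p of 0.0445. That call was close to the threshold: it held without Het165 and was lost without any other single female library (edgeR adjusted p 0.0739 to 0.234) and in the fit of all 12 libraries (0.0779). Values were 327, 386 and 266 CPM in Het males and 527, 677 and 378 CPM in KO-labelled males. One male KO-labelled animal, KO255, lay just below the highest Het animal, while the other KO-labelled animals were well above all of them. The male log2 fold change was 0.69 ± 0.196 (SE), with an edgeR adjusted p of 0.165. Without KO255 it was 0.88 with an adjusted p of 0.00579. Without KO247, the highest, it was 0.48 with an adjusted p of 0.198. Leaving out any male library other than KO255 gave no call (edgeR adjusted p 0.181 to 0.504). Leaving out KO255 gave 190 genes called higher and 104 lower of 13732, beside 94 and 21 of 13361 with every male library kept.

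Pkm encodes the muscle pyruvate kinase, whose splice forms M1 and M2 these gene counts cannot separate (chromosome 9, 59656368 to 59679375, plus strand). Het females had 951, 899 and 913 CPM and KO-labelled females 929, 946 and 1017 CPM, with overlapping ranges. Het males had 1069, 1123 and 1154 CPM and KO-labelled males 1217, 1211 and 937 CPM. The log2 fold changes were 0.063 and 0.011. Of its exonic bases 15.3% overlap the gene model Gm49759, and the count, made without strand, leaves out reads that touch both.

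Ldha encodes the lactate dehydrogenase subunit that favours the reduction of pyruvate to lactate (chromosome 7, 46841475 to 46855627, plus strand). Female values were 563, 599 and 544 CPM in Het and 506, 672 and 662 CPM in KO-labelled animals. Male values were 743, 682 and 678 CPM in Het and 610.1, 724 and 552 CPM in KO-labelled animals. The ranges overlapped in both sexes, and the log2 fold changes were 0.11 and -0.16 (edgeR adjusted p = 0.756 and 0.706).

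**Figure D2:**
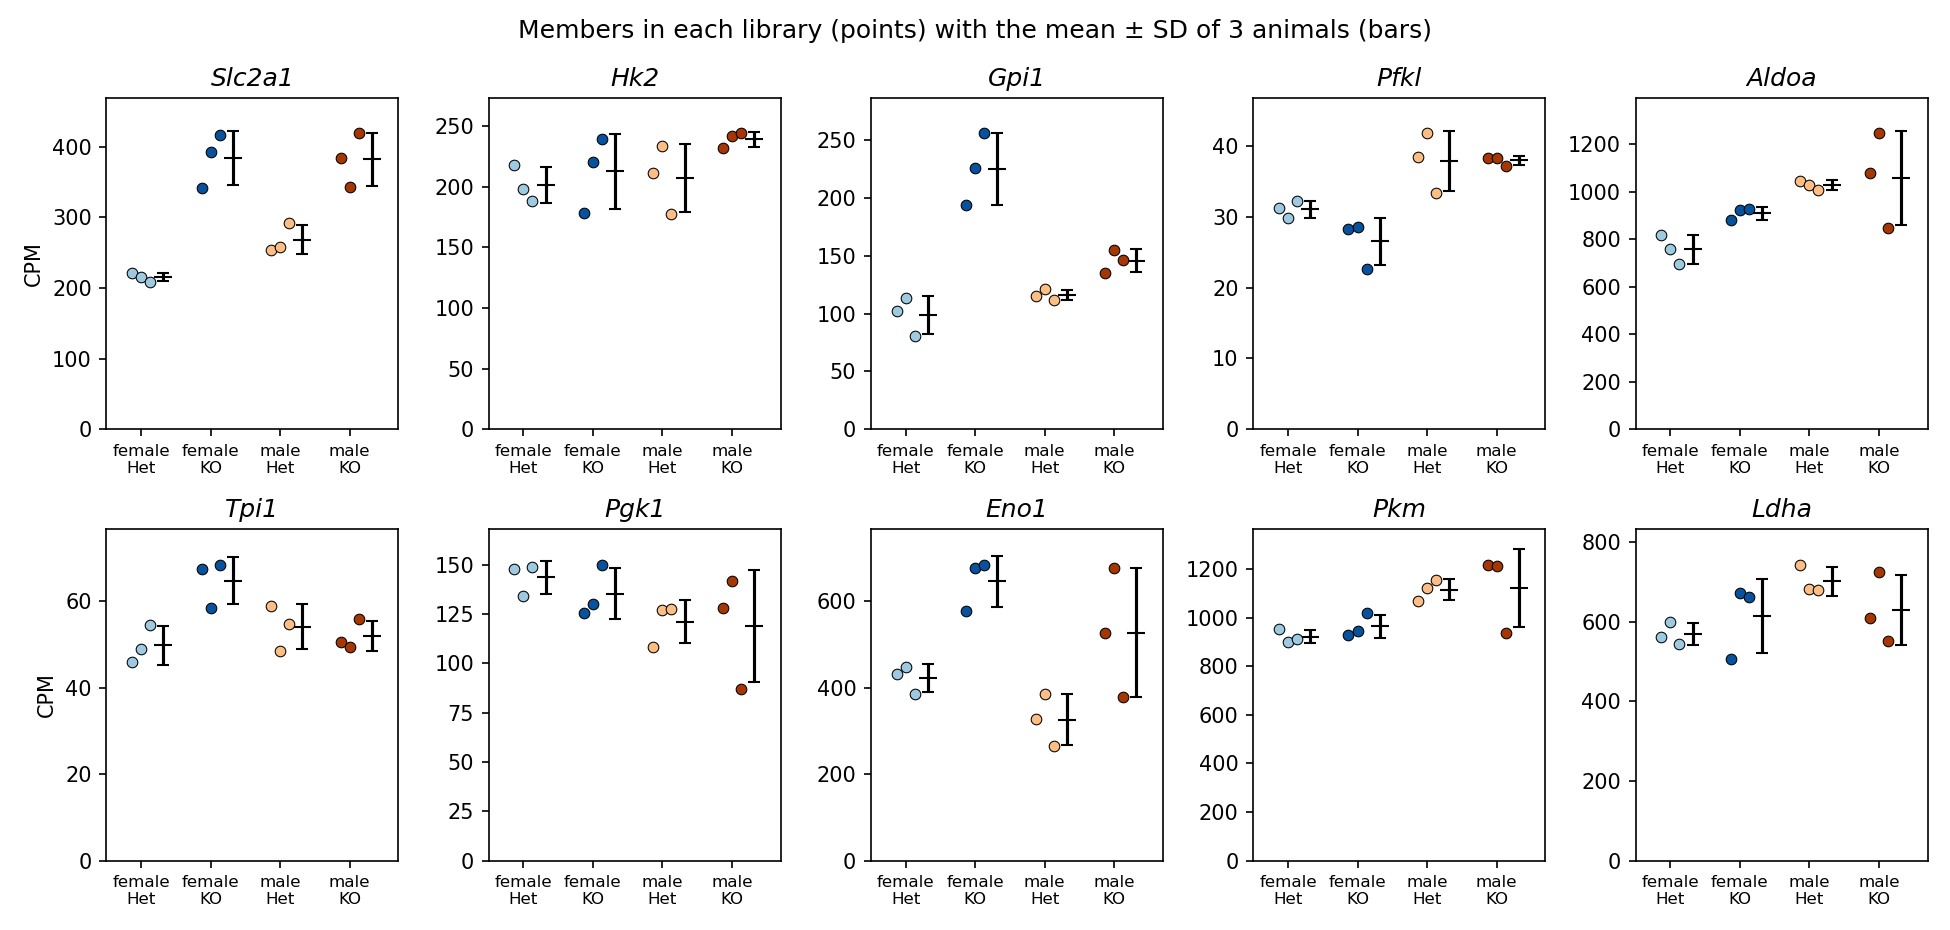
CPM of each member (vertical axis, starting at 0) in each of the 12 libraries, by group, with the mean ± SD of 3 animals to the right of the points. Slc2a1 and Gpi1 have no overlap between Het and KO-labelled libraries in either sex, and in male KO-labelled animals Aldoa, Pgk1, Eno1, Pkm and Ldha spread widely.

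Counted over the members, all 3 KO-labelled females lay above all 3 Het females for 5 of 10 genes (Slc2a1, Gpi1, Aldoa, Tpi1 and Eno1), against 12.1% of all genes tested. With Pfkl, which lay below, the female groups did not overlap for 6 of 10 members, against 22.3%. In males all KO-labelled libraries lay above all Het libraries for 2 of 10 members, Slc2a1 and Gpi1, against 9.39% of genes, and no member lay below, so that 2 of 10 stand beside 17.2% that did not overlap in either direction. The summed CPM of the 10 members was 3409 ± 141 in female Het and 4182 ± 319 in female KO-labelled libraries. In males it was 3974 ± 74.6 and 4311 ± 566.

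Within a group the same library was often lowest. Among the 3 female KO-labelled libraries, KO166 was the lowest for 8 of the 10 members and KO188 the highest for 8. Among the male KO-labelled libraries, KO255 was the lowest for 6 members and KO247 the highest for 6. The 6 members lowest in KO255 were Pfkl, Aldoa, Pgk1, Eno1, Pkm and Ldha, while Slc2a1, Hk2 and Tpi1 were highest there. KO255 also had the highest summed level of the 10 endothelial markers, 324 CPM against 121 and 148 CPM in KO240 and KO247. Its 6 red blood cell markers summed to 78.8 CPM against 16.9 and 20.5 CPM. The part of both in the spread was not tested.

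The average over the sexes, from 1 fit of all 12 libraries, called the same 3 members, against 3.41% of 14772 genes, or 2.15% as higher. Gpi1 rose by 0.76 ± 0.1005 (SE), Slc2a1 by 0.67 ± 0.0890 and Eno1 by 0.65 ± 0.129 on the log2 scale. The edgeR adjusted p-values were 0.000145, 0.000146 and 0.00697. For all 3 genes the call held in each of the 6 other settings and without any single library. The other 7 members did not pass, with log2 fold changes from -0.11 for Pfkl to 0.16 for Tpi1.

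Whether the change differed between the sexes was tested as an interaction in the same fit, which called 0 of 10 members and 0.00677% of all genes. Gpi1 came nearest: its female change exceeded its male change by 0.86 ± 0.200 (SE) on the log2 scale (unadjusted p = 0.000469, edgeR adjusted p = 0.122). DESeq2 called that difference (adjusted p = 0.0167, with 1.20% of genes called), as did edgeR without a filter on low counts (0.0093, with 1.13% called) and without Het165 (0.0260). That last fit called 78 genes higher and 128 lower of 15174. For Tpi1 the difference was 0.44 (edgeR adjusted p = 0.349) and for Slc2a1 0.32 (0.484). For Eno1 the point estimates were nearly equal in the sexes, with a difference of -0.078 and a 95% interval of -0.62 to 0.46. In the male comparison itself, DESeq2 and edgeR without the filter each called Slc2a1 and Eno1, with 2.02% and 1.33% of all genes called.

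The stretches of DNA just before the transcription start of the 3 members that rose in females are shown because the calls turn on these genes. They are RefSeq sequences of GRCm38.p6, read 5′ to 3′ on the strand of the gene, and capitals mark the GC box, GGGCGG or its reverse complement.
Slc2a1, chr4:119108495-119108710, plus strand: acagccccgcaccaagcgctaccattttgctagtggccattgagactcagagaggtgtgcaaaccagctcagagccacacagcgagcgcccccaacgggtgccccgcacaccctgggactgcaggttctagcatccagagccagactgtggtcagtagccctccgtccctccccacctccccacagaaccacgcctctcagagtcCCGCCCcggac
Gpi1, chr7:34230337-34230586, minus strand: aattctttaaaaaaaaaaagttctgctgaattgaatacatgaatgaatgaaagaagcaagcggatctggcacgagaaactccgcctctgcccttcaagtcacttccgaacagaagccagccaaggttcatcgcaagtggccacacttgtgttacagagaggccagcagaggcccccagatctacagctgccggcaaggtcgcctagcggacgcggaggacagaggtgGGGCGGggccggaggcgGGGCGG
Eno1, chr4:150236458-150236707, plus strand: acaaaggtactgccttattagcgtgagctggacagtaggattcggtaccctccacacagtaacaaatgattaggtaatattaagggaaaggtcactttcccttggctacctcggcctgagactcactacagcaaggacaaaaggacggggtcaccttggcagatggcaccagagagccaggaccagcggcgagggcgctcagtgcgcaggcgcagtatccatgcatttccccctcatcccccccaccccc
The Slc2a1 stretch ends where the counted gene model begins and holds 1 GC box, which starts 11 bases before its end. The Gpi1 stretch holds 2, which start 23 and 6 bases before its end. The Eno1 stretch holds none, while the windows before its other 2 start sites do.

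Windows of 250 bases before all 16 RefSeq start sites of the 10 members were searched on both strands. The core of the antioxidant response element, the site of NRF2, was searched as TGACNNNGC and lay in 1 of the 16 windows, before a start site of Aldoa, and in 10.2% of 32851 windows of all genes. It lay in no window of Slc2a1, Gpi1 or Eno1, which says only that these letters are not there. The core of the hypoxia response element, ACGTG, lay in 7 of 16 windows, of Slc2a1, Hk2, Aldoa, Pgk1, Pkm and Ldha, and in 16.6% of all windows. The E-box CACGTG, which contains ACGTG, lay in 1 of 16, before Ldha, and in 6.02% of all. The GC box lay in 11 of 16 windows and in 32.7% of all, before 9 of the 10 members, with Pfkl as the exception. Windows of close start sites overlap, so the same sites count more than once for Aldoa (ACGTG and GC box) and Eno1 (GC box). The GC box was added after the sequences were seen.

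Levels between genes were compared as CPM per kilobase of merged exons. In female Het libraries Aldoa was highest at 260.1 ± 20.7, followed by Pkm at 184 ± 5.42 and Ldha at 172 ± 8.49. Then came Eno1 at 78.5 ± 5.91, Pgk1 at 64.0 ± 3.71, Slc2a1 at 61.5 ± 1.80 and Hk2 at 33.7 ± 2.51, before Tpi1 at 18.1 ± 1.62, Gpi1 at 15.3 ± 2.58 and Pfkl at 4.65 ± 0.181. Libraries of neighbours in this order overlapped for Pkm and Ldha, Pgk1 and Slc2a1, and Tpi1 and Gpi1, and lay apart for the others.

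Aldoa, Pkm and Ldha took the first 3 places and Pfkl the last in all 4 groups. In female KO-labelled libraries Slc2a1 stood at 109.5 ± 10.9 CPM per kilobase, above Pgk1 at 60.2 ± 5.77, and Gpi1 at 34.9 ± 4.80, above Tpi1 at 23.5 ± 1.99, so both passed a neighbour of the Het order. In male Het libraries the middle of the order ran from Slc2a1 at 76.5 ± 5.80 through Eno1 at 60.7 ± 11.1 to Pgk1 at 53.9 ± 4.84. In male KO-labelled libraries Slc2a1 stood at 109.0 ± 10.8 and Eno1 at 98.0 ± 27.8 CPM per kilobase, with overlapping libraries.

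The length used matters for this order. Divided by the length of the reference transcript, Eno1 came right after Ldha in all 4 groups, from 161 ± 29.6 in male Het to 319 ± 29.5 in female KO-labelled libraries. Gpi1 then lay above Tpi1 in all 4 groups and, in female KO-labelled libraries, at 78.1 ± 10.7 beside Pgk1 at 74.1 ± 7.09. Aldoa, Pkm, Ldha and Pfkl kept their places.

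**Figure D3:**
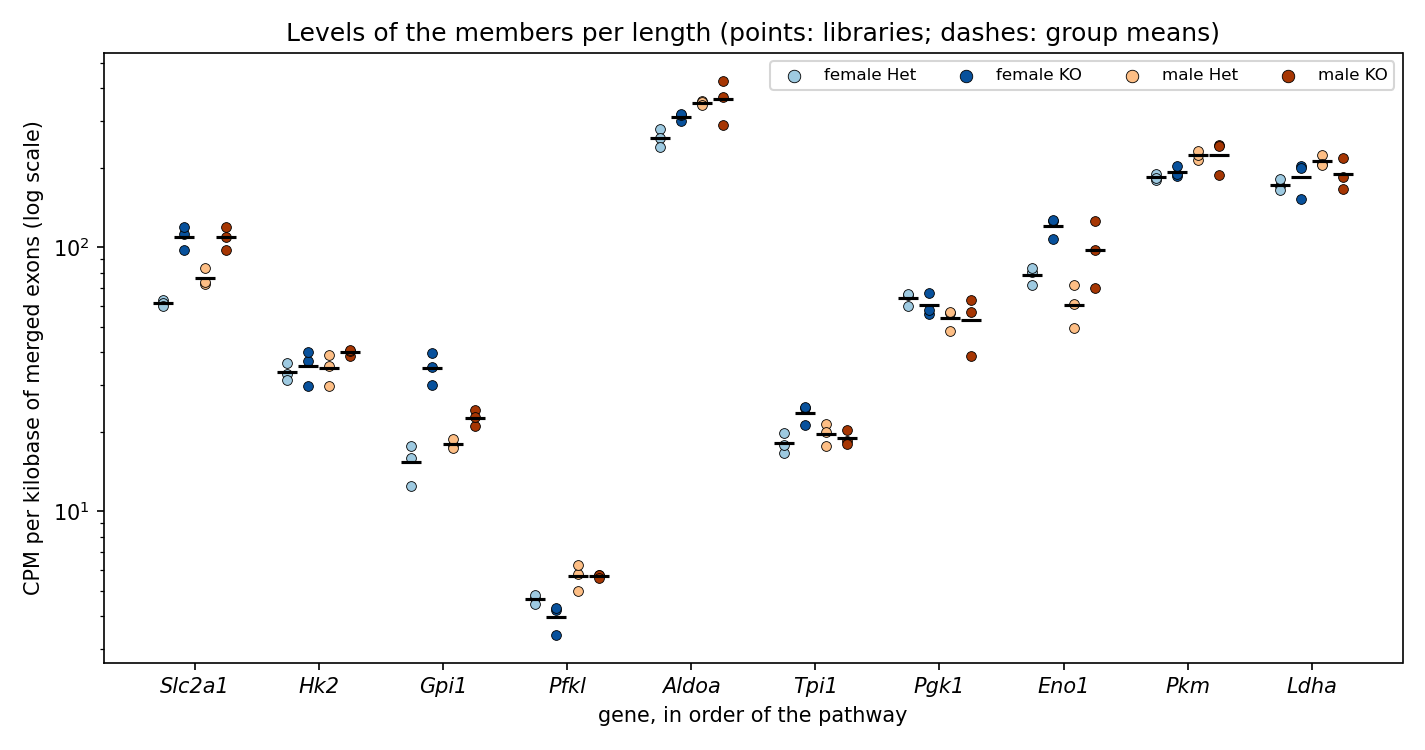
CPM per kilobase of merged exons (vertical axis, log scale) of the 10 members in order of the pathway, with a point for each library and a dash for the mean of each group. Aldoa, Pkm and Ldha are the highest and Pfkl the lowest in each group, and Gpi1 and Slc2a1 have higher means in the KO-labelled groups.

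Several members have close copies in the genome, and reads that mapped to more than 1 place were not counted. Of the 50-base stretches of the Eno1 reference transcript 72.2% also occur in a transcript of another gene, mostly Eno1b, whose coding sequence differs at 8 of 1302 bases and which held 4 to 29 counts per library. The share was 68.0% for Pgk1, 34.4% for Pkm, 19.3% for Gpi1, 16.6% for Ldha, 13.5% for Aldoa and 7.51% for Tpi1. It was 0.0543% for Pfkl and 0% for Slc2a1 and Hk2. The read length is not given in the sources used here, so these shares describe the transcripts and not the loss of reads, and the levels of Eno1 and Pgk1 are uncertain for that reason.

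The share of a member in its gene family was computed from CPM per kilobase. Slc2a1 made up 79.2 ± 1.81% of the summed level of 7 SLC2A transporter genes in female Het and 88.3 ± 1.07% in female KO-labelled libraries. In males it made up 75.9 ± 1.56% and 80.9 ± 0.780%. The libraries of the groups did not overlap in either sex, and an exact permutation test (two-sided) gave 0.1 in each, the smallest that 3 against 3 animals allow (0.333 adjusted over the 10 shares tested).

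Hk2 was the main hexokinase, with 70.0 ± 5.55% and 70.1 ± 2.37% in the female groups and 73.1 ± 3.15% and 76.3 ± 1.36% in the male groups. Pfkl made up a minor part of the phosphofructokinases, with group means of 15.9 to 18.8%. Pfkp, the platelet type, stood at 20.7 CPM per kilobase over the 12 libraries, against 4.996 for Pfkl. Pfkm was lower than Pfkl, with an average log2 CPM in males of 2.97 against 5.19. Eno1 made up 89.95 ± 5.13% and 91.2 ± 7.66% of the enolases in females, where the lowest share, 82.4%, was in KO166. Ldha made up 95.5 ± 0.257% of the lactate dehydrogenase genes in male Het and 94.6 ± 0.466% in male KO-labelled libraries (exact permutation p = 0.1).

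**Figure D4:**
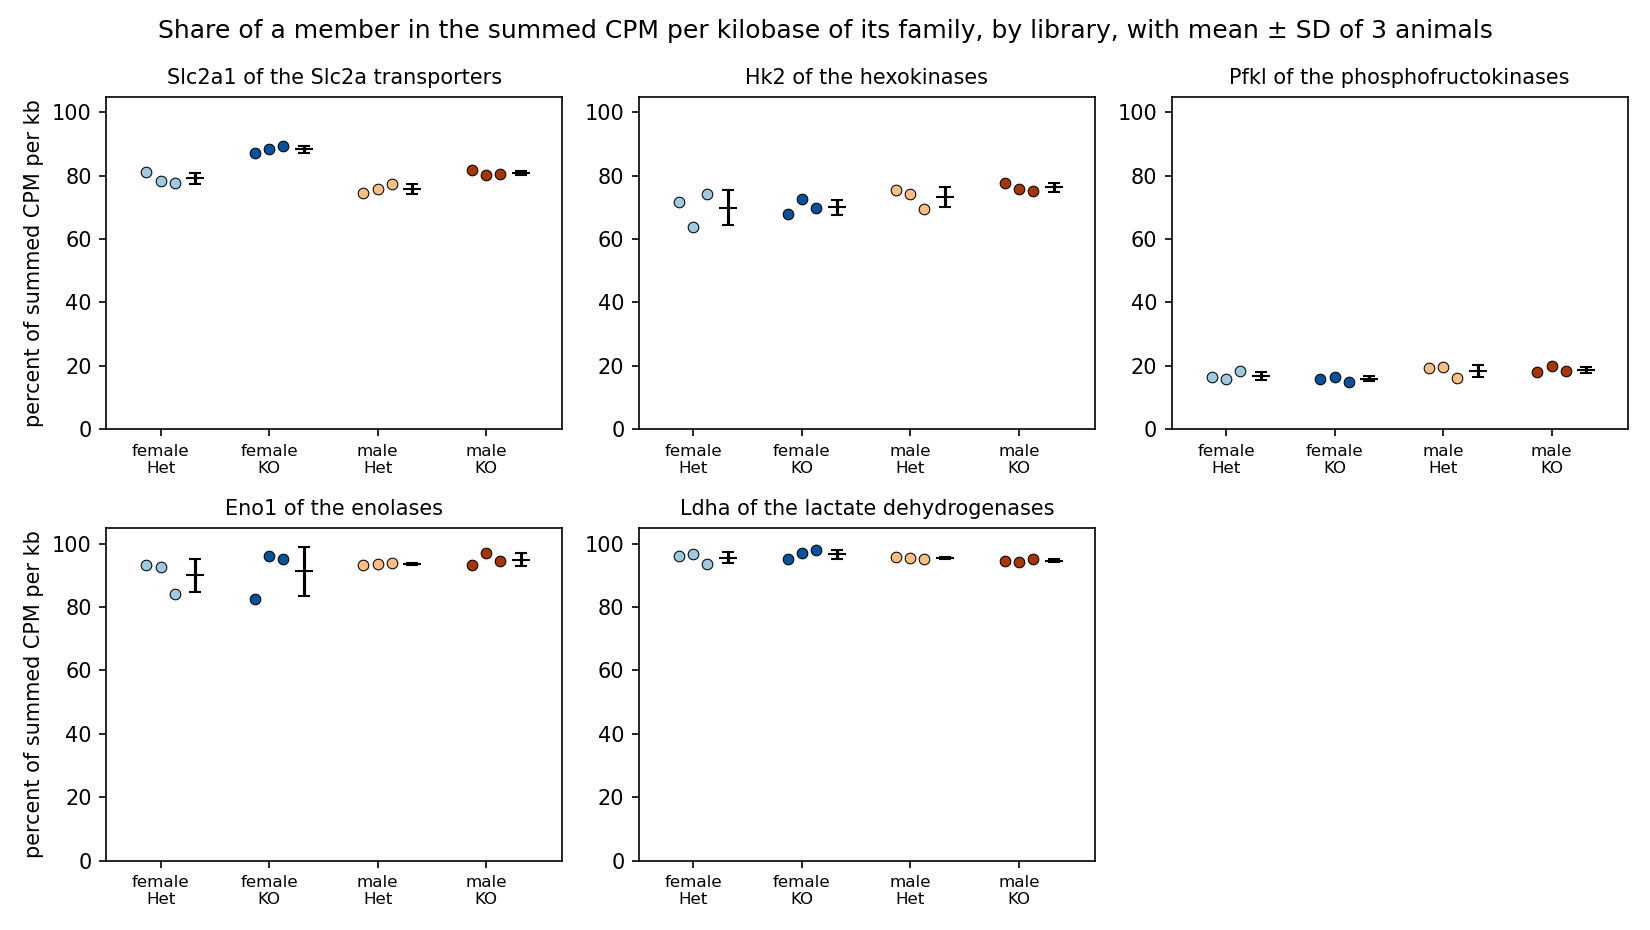
Share of a member in the summed CPM per kilobase of its gene family (vertical axis, percent), with a point per library and the mean ± SD of 3 animals for each of the 4 groups. The Slc2a1 share is higher in KO-labelled than in Het libraries in both sexes, and Hk2, Eno1 and Ldha dominate their families in every group.

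The rest of the pathway was read from a list of 23 genes: other transporters, the isoenzymes of the members and the steps the members lack. Of the 17 that could be tested, 0 passed in either sex, beside 2.27% of all genes in females and 0.861% in males. At an unadjusted edgeR p under 0.05 there were 2 of the 17 in females and 1 in males. Their median log2 fold change was 0.029 in females and -0.0025 in males. Gapdh, glyceraldehyde-3-phosphate dehydrogenase, came nearest in females, with 358, 517 and 272 CPM in Het and 564, 664 and 744 CPM in KO-labelled animals. Its female groups lay apart, and its log2 fold change of 0.78 had an edgeR adjusted p of 0.0903. DESeq2, edgeR without the filter and the fit of all 12 libraries each called it. In males Gapdh stood at 389 ± 21.9 and 371 ± 12.6 CPM. Of the 50-base stretches of its transcript 90.4% occur in other genes, so its level is uncertain.

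For the other steps the gene with the highest level per kilobase is given. Slc2a3, the GLUT3 transporter, stood at 45.8 ± 6.80 and 35.0 ± 4.44 CPM in the female groups and at 63.2 ± 5.61 and 79.3 ± 9.16 CPM in the male groups. Its log2 fold changes were -0.39 and 0.33, with edgeR adjusted p of 0.227 and 0.345, opposite in sign to each other. Hk1 stood at 121 ± 33.9 and 124 ± 13.9 CPM in females, Pfkp at 275 ± 24.2 and 236 ± 17.03 CPM, and the phosphoglycerate mutase gene Pgam1 at 70.7 ± 15.9 and 91.8 ± 16.9 CPM. Ldhb, the other lactate dehydrogenase subunit, stood at 12.7 ± 4.59 and 9.67 ± 3.001 CPM. Pklr, the pyruvate kinase of liver and red blood cells, had 0 counts in every library, which at a floor of 3 counts allows up to 0.237 CPM. Eno3, the muscle enolase, stood at 39.1 CPM in KO166 and at 8.32 and 10.7 CPM in the other female KO-labelled libraries.

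Among 24 genes that steer the flux or handle pyruvate and lactate, 1 of 23 tested rose in females, beside 1.29% of all genes. In males 0 of 22 passed, beside 0.861% (edgeR, with 2 and 5 at an unadjusted p under 0.05 in the sexes). The gene called in females was Txnip, whose protein binds thioredoxin and restrains glucose uptake. Txnip stood at 47.0, 67.1 and 52.1 CPM in female Het and 117, 81.4 and 89.3 CPM in female KO-labelled libraries, without overlap. Its log2 fold change was 0.79 ± 0.179 (SE), with an edgeR adjusted p of 0.0398, and in males it was 0.52 with an adjusted p of 0.531. Of its exonic bases 19.4% overlap the gene model Gm15441. Myc, a transcription factor that drives many glycolytic genes, was the most abundant of this list per kilobase, with log2 fold changes of -0.074 and 0.052. Hif1a, the oxygen-sensitive regulator of the pathway, stood at 372 ± 27.4 and 328 ± 16.4 CPM in females and at 395 ± 36.2 and 521 ± 50.6 CPM in males, and passed in neither (edgeR adjusted p = 0.4996 and 0.225).

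Among 18 genes known to respond to hypoxia outside glycolysis, 1 of 17 tested passed in females, beside 2.27% of all genes. In males 0 of 17 passed, beside 0.861% (edgeR, with 4 and 3 at an unadjusted p under 0.05 in the sexes). The gene called in females, P4ha2, a collagen prolyl hydroxylase, fell by 0.65 on the log2 scale. It went from 97.2 ± 13.5 to 62.0 ± 6.40 CPM (edgeR adjusted p = 0.0411). The list's median was -0.0055 in females and 0.11 in males. Ndrg1, its most abundant gene, stood at 711 ± 140.2 and 743 ± 84.2 CPM in the female groups.

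**Figure D5:**
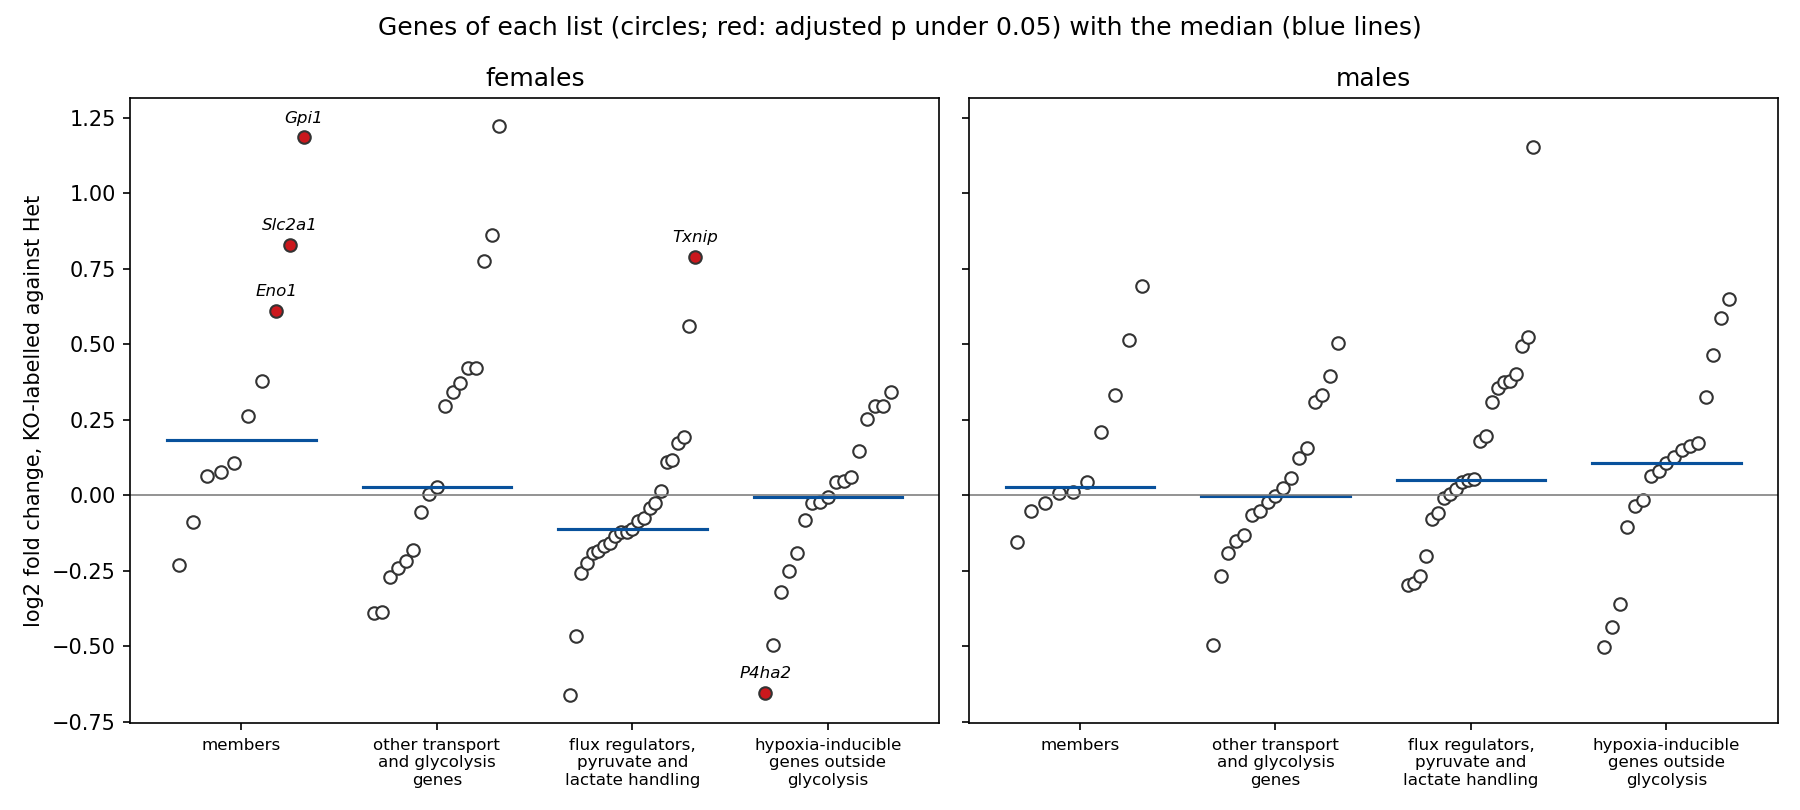
Log2 fold change between KO-labelled and Het libraries (vertical axis) of each tested gene of the 4 lists, ordered by value within a list, in females (left) and males (right). Red circles passed an edgeR adjusted p of 0.05 and blue lines are medians. Gpi1, Slc2a1, Eno1, Txnip and P4ha2 are red in females and no gene is red in males.

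Other measures differed between the genotypes in females without overlap. The 10 leukocyte and macrophage markers summed to 83.1 to 115 CPM in female Het and 32.9 to 52.3 CPM in female KO-labelled libraries, with none at 0. Of 9 tested 2 were called lower, Cd74 and Lyz2, beside 2.27% of all genes (edgeR, 5 at an unadjusted p under 0.05). The median log2 fold change of these 9 was -0.85, with 1 above 0. The 12 satellite cell markers summed to 11524 to 13083 CPM and 7938 to 10255 CPM. Of them 1 passed, Cd34, which fell, beside 2.27% of all genes (edgeR, 4 at an unadjusted p under 0.05). Of the 12 markers 3 had a log2 fold change above 0. Sdc4, the most abundant in that sum, did not pass (log2 fold change -0.58, edgeR adjusted p = 0.122). For Pax7 the log2 fold change was -0.056. The share of counts in mitochondrial rRNA genes was 0.302 to 0.507% and 0.733 to 1.03%. The sums of the 12 myofibre markers overlapped, at 121 to 352 CPM and 134 to 697 CPM, the highest in KO166. Of 10 tested 0 passed (edgeR, 1 at an unadjusted p under 0.05). All 10 had a log2 fold change above 0, with a median of 0.96. Of 10 endothelial markers 0 passed (3 at an unadjusted p under 0.05), and 9 lay above 0, with a median of 0.44. Their sums overlapped, at 65.3 to 68.6 and 50.3 to 88.8 CPM. Of the 8 fibro-adipogenic markers 0 passed (3 at an unadjusted p under 0.05, Dpt, Gsn and Lum, all with lower values in KO-labelled females), and their sums overlapped, at 4640 to 7074 and 4387 to 5159 CPM. Without KO166 Gpi1 and Slc2a1 were still called, and Eno1 had an edgeR adjusted p of 0.0739. Among males the leukocyte sums overlapped (27.5 to 85.6 and 51.7 to 69.3 CPM), and the mitochondrial rRNA share ran the other way (0.409 to 0.601% and 0.226 to 0.407%). The part of these measures in the changes of the members was not tested, and in such bulk samples fewer cells of a type and less RNA per cell cannot be told apart.

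The sexes were counted in separate tables, so sex cannot be told apart from any difference between the tables. Between female and male Het libraries 0 of 10 members passed, against 10.2% of all genes. For 8 of the 10 the female level was lower, and Aldoa came nearest, at 757 ± 60.3 CPM in females and 1027 ± 20.5 CPM in males (log2 difference, female minus male, -0.44, edgeR adjusted p = 0.0547). Eno1 and Pgk1 were the members with a higher female value, by 0.37 and 0.25.

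Between female and male KO-labelled libraries 2 of 10 members passed, against 20.4% of all genes. Gpi1 was higher in females by 0.63 ± 0.142 (SE) on the log2 scale (edgeR adjusted p = 0.00514). Pfkl was lower in females by a log2 difference of -0.52 ± 0.139 (SE), at 26.5 ± 3.33 against 37.96 ± 0.664 CPM (edgeR adjusted p = 0.0144). The Pfkl call was lost without KO188 (0.0823) and when library totals replaced the TMM factors (0.0892). For Slc2a1 the log2 difference between the KO-labelled sexes was 0.0068, with a 95% interval of -0.26 to 0.27.

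Other genes around the members were called between the sexes, where 10.2% of all genes passed in Het and 20.4% in KO-labelled libraries. Slc16a3, the lactate exporter MCT4, stood at 58.0 ± 15.6 CPM in female and 234 ± 64.6 CPM in male Het libraries, and 36.9 ± 12.9 and 189.9 ± 56.7 CPM with the KO label. The log2 differences were -2.01 and -2.37, with edgeR adjusted p of 0.00127 and 0.000201. Pfkfb3 and Pfkfb4, which make the activator of phosphofructokinase, the sugar-sensing factor gene Mlxipl and the transporter gene Slc2a10 were also lower in females in both genotypes. Dld, a subunit of pyruvate dehydrogenase, and the hexokinase-like gene Hkdc1 were higher in females in both. Hkdc1 was low, with an average log2 CPM in males of -0.63 against 6.98 for Dld. Of the 23 tested regulators 1 was higher and 4 were lower in Het females, and 2 were higher and 6 lower in KO-labelled females, beside those shares of all genes. Tigar was the other higher one, and Pdp1 and Hif1a the other lower ones.

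Of the 17 tested transport and glycolysis genes 1 was higher and 1 lower in Het females, near the 10.2% of all genes. In KO-labelled females 2 were higher and 4 lower, beside 20.4% of all genes, with Gapdh as the other higher one and Slc2a3, Slc2a12 and Ldhb as the other lower ones. Among the hypoxia genes Adm and Plod2 were higher in females in both genotypes. Ndrg1 was lower in Het females, Bnip3l and Egln3 were higher and P4ha2 and Vegfa lower in KO-labelled females.

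Markers of most cell types also differed between the sexes beside these results and those of the members. Between Het females and males the summed endothelial markers were 65.3 to 68.6 against 201 to 212 CPM, with all 10 lower in females. The satellite cell sums were 11524 to 13083 against 15013 to 17170 CPM. Of those 12 markers 1 was called higher and 1 lower in females, beside 10.2% of all genes. The red blood cell sums were 5.89 to 16.9 against 29.1 to 45.1 CPM. The myofibre sums were 121 to 352 against 49.1 to 62.6 CPM and the fibro-adipogenic sums 4640 to 7074 against 2896 to 4534 CPM. The leukocyte sums overlapped, at 83.1 to 115 against 27.5 to 85.6 CPM. In the KO-labelled groups satellite cell sums were 7938 to 10255 CPM in females and 17011 to 18331 CPM in males, and endothelial sums 50.3 to 88.8 and 121 to 324 CPM. Of the 12 satellite cell markers 2 were called higher and 5 lower in KO-labelled females, beside 20.4% of all genes. Red blood cell sums were 8.28 to 10.5 and 16.9 to 78.8 CPM there, while the myofibre, leukocyte and fibro-adipogenic sums of the sexes were 134 to 697 and 46.1 to 141, 32.9 to 52.3 and 51.7 to 69.3, and 4387 to 5159 and 3810 to 4519 CPM. The myofibre marker Myh7 was at 0 in all male KO-labelled libraries. The part of cell types in the sex differences of the members and of these lists was not tested.

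The genes whose pattern over the 12 libraries was most like that of the 3 members called in females were found by the root mean square difference of centred log2 CPM among 11113 genes. For Slc2a1 they were Aldh2, a mitochondrial aldehyde dehydrogenase, at 0.0937, Hfe at 0.152 and Atp6v0a1, a subunit of the vacuolar proton pump, at 0.157, while the median over all genes was 0.461. For Gpi1 they were the efflux pump gene Abcc1 at 0.141, Bahd1 at 0.174 and Pgls, an enzyme of the pentose phosphate pathway, at 0.174, against a median of 0.541. For Eno1 they were Msantd3 at 0.171, the transcription factor gene Gli3 at 0.177 and Entpd5 at 0.182, against 0.499. These values describe the 12 libraries, which share their depth and preparation.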

How the data were processed

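Per the labels, RNA of satellite cells was extracted with a column kit, amplified as cDNA by Smart-Seq2 and cut by Tn5, with no molecular identifiers. The spread between libraries can therefore include amplification, beside counting error and differences between animals. The deposited tables hold whole read counts per gene, made, per the file headers, with featureCounts 2.0.0 from exons of Ensembl GRCm38 release 99, without regard to strand, leaving out reads with several places or genes. The submitters' processing notes also name STAR, Subread, DESeq2 and mm10. The tables held 0 columns of other samples. Symbols came from GENCODE M21 (55144 of 55385 genes), which held all 138 list genes.

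The members and lists were chosen with earlier results of these data known. Within a sex, genotypes were compared in edgeR 4.0.16 (R 4.3.3; quasi-likelihood), with robust fitting, TMM factors and a minimum count of 10 in filterByExpr, and p-values were adjusted by Benjamini-Hochberg over all genes tested with a threshold of 0.05. All 10 members passed that filter in each comparison. All 12 libraries entered 1 fit for the average, the difference of the changes and the contrasts between sexes. Alternatives were DESeq2 1.42.0, voom of limma 3.58.1, RLE factors, no filter, library totals (added after the data were seen), the fit of 12 libraries, sex as an additive term and leaving out each library. Tests were tried on simulated data. Genes were named by rule: all members, each other list's called genes, the most abundant gene per kilobase of a step, and the 3 genes most like a called member (log2 with a pseudocount of 0.5 CPM, minimum average log2 CPM of 1).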

Additional observations from a re-analysis of the deposited data

How the results depend on the processing

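No paired analysis was possible because each animal carries a number that no other animal has. The 3 members called on the average of the sexes passed in every setting run, and Gpi1 also in every setting for females. In males DESeq2 and the fit without a filter called 2 members in place of 0, Slc2a1 and Eno1. For the difference of the sexes both called 1, Gpi1. Between the sexes in Het libraries DESeq2 and limma voom called 1, Aldoa. Over all 14772 genes they called 986 higher and 1025 lower in females, and 609 and 825. Among the other transport and glycolysis genes in females DESeq2, no filter and the fit of 12 libraries called 1, Gapdh. Leaving out 1 library at a time gave 1 to 3 called members in females and 0 to 1 in males (Slc2a1 without KO247, Eno1 without KO255). It gave 0 to 1 for the difference, 0 to 1 between Het sexes (Aldoa without KO247 or KO255), 1 to 2 between KO-labelled sexes and 0 to 1 other pathway genes in females. Between Het sexes the fits without KO247 and KO255 called 752 genes higher and 813 lower of 15338, and 823 and 906 of 15305. Calls over all genes moved as well. In females they were fewest without KO188, with 99 higher and 45 lower of 14500 and 1 member called. They were most without Het165, with 758 higher and 721 lower of 14439 and 3 members called. In males they were fewest without KO240, with 37 higher and 4 lower of 13840. Without KO247 they were 168 and 61 of 13900, and without KO255 190 and 104 of 13732. The cause was not tested.

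Signs changed only for values that did not pass. With DESeq2 and RLE factors the log2 fold change of Pfkl in males was -0.00088 and -0.00091. With library totals the sex difference of Hk2 in Het was 0.058 and that of Ldha in KO-labelled libraries 0.12, and Tpi1 was called there in place of Pfkl. Between KO-labelled sexes that setting called 2370 genes higher and 1104 lower of 14772. Without 1 library the log2 fold change ran from -0.026 to 0.19 for Hk2 in females. In males it ran from -0.089 to 0.081 for Pfkl, -0.082 to 0.18 for Aldoa, -0.13 to 0.00020 for Tpi1, -0.16 to 0.15 for Pgk1 and -0.067 to 0.12 for Pkm. On the average it ran from -0.12 to 0.036 for Pgk1 and -0.075 to 0.036 for Ldha. The difference of the sexes ran from -0.24 to 0.078 for Pgk1, -0.27 to 0.13 for Eno1 and -0.057 to 0.12 for Pkm. Between Het sexes Hk2 ran from -0.13 to 0.055, and between KO-labelled sexes Slc2a1 ran from -0.064 to 0.086 and Ldha from -0.11 to 0.088. Pfkl, with 404 to 743 counts per library, had the least depth of the members.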
